A study of Mus musculus with 46 samples.

Results

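The Trim5 and Trim30 gene cluster lies on mouse chromosome 7 (mm10), where Trim34a, Trim5, Trim12a, Trim12c, Trim30b, Trim30c, Trim30a and Trim30d follow each other between 104244457 and 104507849. The 8 genes were chosen by their RNA levels, which for several of them were far lower in the PND8 and repopulation microglia than in adult microglia, so every difference from the adult libraries below is a description of how the genes were chosen and carries no test. Of the 8 members, 7 were found among the 20999 genes of the deposited RNA tables, and all 7 passed the filter on low counts that left 12230 genes for testing, Trim12a through the adult libraries alone. Trim30c was not found in the RNA tables, so only its start site, taken from RefSeq, could be described. All peaks between 103.8 and 104.6 Mb of chromosome 7 were also collected from the 20 deposited peak lists.

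The Trim genes encode tripartite-motif proteins, which join a RING ubiquitin ligase domain, a B-box and a coiled coil, and in this cluster usually a C-terminal PRY-SPRY domain that recognises other proteins. Human TRIM5 is known for binding the capsids of incoming retroviruses and for signalling that a capsid was met. Mice carry several copies related to it, Trim5, Trim12a and Trim12c, beside Trim34 and the rodent Trim30 genes. Many of these genes are induced by interferon in macrophages, of which microglia are the resident kind in brain tissue. Trim30a is known to restrain Toll-like receptor signalling to NF-kB by removing the adaptors Tab2 and Tab3, and Trim30d is known as an interferon-induced antiviral factor.

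RNA-seq was made from microglia of male C57BL/6 mice, sorted by flow cytometry, in 5 groups of 2 libraries that the labels call biological replicates. The adult libraries came from untreated mice of wild-type (WT) genotype, 90 days old, and are labelled Ki67-negative. The PND8 libraries came from mice 8 days old, and the repopulation libraries from mice 75 days old that had received the diet PLX5622, a CSF1R inhibitor that removes microglia, for 17 days from day 55, followed by 3 days of recovery. Both of these were split by the proliferation protein Ki67 into Ki67- and Ki67+ cells, and all 8 of these libraries are labelled with the genotype Ki67-rfp, a mouse whose Ki67 protein carries a red fluorescent tag. Genotype, age and treatment therefore cannot be told apart in any comparison with the adult libraries, whereas the 4 comparisons among the PND8 and repopulation groups stay within Ki67-rfp mice. Both adult libraries also carry a numeric code in the file header, 190710, that no other RNA library has. This code cannot be told apart from the adult group either. The histone and RNA polymerase lists are all labelled wild type. These wild-type lists cover H3K27ac (adult, PND8 Ki67- and Ki67+, repopulation Ki67+, and Ki67- and Ki67+ cells after 4 weeks of cuprizone), H3K4me3 (adult) and Rpb2, a subunit of RNA polymerase II (adult and PND8 Ki67+). Their mice were 60 or 65 days old (adult H3K27ac and Rpb2), 75 (H3K4me3), 8 (PND8) and 90 days (cuprizone and repopulation), the last with PLX5622 for 17 days from day 70 and 3 days of recovery. Of the 3 ATAC-seq lists, the adult one is wild type, while the PND8 Ki67+ and repopulation Ki67+ ones carry Ki67rfp in their titles and wild type in their genotype label, from mice 80, 8 and 75 days old in that order.

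The RNA libraries held between 6865903 and 10287876 counts, so that 3 counts, used here as the floor of detection, corresponded to 0.275 to 0.457 CPM, the count scaled to library size. The 8 listed microglia markers, among them P2ry12 and Tmem119, were all above the floor in every group and summed to 6130 to 8140 CPM. Mki67, which encodes Ki67, was higher in Ki67+ than in Ki67- cells, at 1010 against 262 CPM at PND8 (log2 fold change 1.95) and 1010 against 400 CPM in repopulation (1.34). The adult libraries, also labelled Ki67-negative, were at 12.2 ± 1.71 CPM (SD, n = 2). In such bulk libraries, fewer cells of a type and less RNA per cell cannot be told apart.

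Promoters are printed first because several members are near copies of one another and because these copies had unlike RNA levels. The RefSeq promoter table (GRCm38.p6, the build of mm10) held all 8 members, with 300 bases each from 250 before to 50 after the start. The 6 windows below are the first-listed promoters with a match to the core of the interferon-stimulated response element, searched on both strands and here always read on the opposite strand. A core bound by the macrophage factor PU.1 was searched as well, on both strands. Capitals mark these matches, the longer word being the interferon core and the shorter one the PU.1 core, each sequence is written 5′ to 3′ on the gene's own strand, and the 2 motifs do not overlap in any of the windows.
Trim34a, chr7:104244207-104244506, plus strand: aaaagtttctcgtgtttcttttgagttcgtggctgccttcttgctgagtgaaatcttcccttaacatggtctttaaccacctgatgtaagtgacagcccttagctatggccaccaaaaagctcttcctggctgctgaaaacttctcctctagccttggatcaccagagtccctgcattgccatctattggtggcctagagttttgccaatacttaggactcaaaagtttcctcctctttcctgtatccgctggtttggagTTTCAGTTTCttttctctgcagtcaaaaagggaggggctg
Trim5, chr7:104288057-104288356, minus strand: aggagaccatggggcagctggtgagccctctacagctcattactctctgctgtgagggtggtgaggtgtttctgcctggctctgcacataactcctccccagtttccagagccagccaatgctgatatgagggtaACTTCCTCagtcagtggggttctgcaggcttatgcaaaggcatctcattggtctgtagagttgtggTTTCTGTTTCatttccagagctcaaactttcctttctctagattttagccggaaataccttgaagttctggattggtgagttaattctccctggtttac
Trim12a, chr7:104315446-104315745, minus strand: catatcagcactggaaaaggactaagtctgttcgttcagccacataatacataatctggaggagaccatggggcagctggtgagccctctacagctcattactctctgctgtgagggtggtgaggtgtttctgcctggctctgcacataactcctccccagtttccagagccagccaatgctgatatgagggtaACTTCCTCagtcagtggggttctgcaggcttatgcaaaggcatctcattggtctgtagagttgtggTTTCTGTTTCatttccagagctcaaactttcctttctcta
Trim12c, chr7:104353300-104353599, minus strand: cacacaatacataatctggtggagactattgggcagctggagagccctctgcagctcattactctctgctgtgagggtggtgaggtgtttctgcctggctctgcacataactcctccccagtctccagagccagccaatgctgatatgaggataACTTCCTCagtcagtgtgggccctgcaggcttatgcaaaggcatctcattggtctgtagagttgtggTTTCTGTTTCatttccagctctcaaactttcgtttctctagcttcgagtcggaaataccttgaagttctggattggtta
Trim30a, chr7:104465144-104465443, minus strand: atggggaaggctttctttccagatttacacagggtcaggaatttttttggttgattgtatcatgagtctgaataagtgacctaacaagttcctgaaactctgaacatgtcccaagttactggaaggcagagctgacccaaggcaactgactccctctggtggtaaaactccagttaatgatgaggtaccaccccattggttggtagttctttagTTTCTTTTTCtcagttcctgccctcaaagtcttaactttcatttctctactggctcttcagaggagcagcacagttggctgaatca
Trim30d, chr7:104507800-104508099, minus strand: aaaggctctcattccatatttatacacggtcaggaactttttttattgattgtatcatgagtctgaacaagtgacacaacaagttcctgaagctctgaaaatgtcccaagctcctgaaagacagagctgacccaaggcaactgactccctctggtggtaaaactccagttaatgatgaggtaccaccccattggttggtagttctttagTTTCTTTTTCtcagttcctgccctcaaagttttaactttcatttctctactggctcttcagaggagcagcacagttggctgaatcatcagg

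The Trim5 and Trim12a windows shared a stretch of 241 bases without a mismatch, offset because the annotated starts differ. In that stretch the PU.1 core lies 115 to 108 bases before the Trim5 start and 56 to 49 bases before the Trim12a start. Trim12c matched Trim12a at 247 of 261 aligned bases (94.6%), and Trim30d matched Trim30a at 276 of 294 (93.9%), with a longest unbroken run of 118. The Trim34a window and that of its neighbour Trim34b were unlike each other, at 50.8% identity, and Trim34b held neither motif. The interferon core was present in 6 of the 8 member windows and in 3.44% of all 32851 windows of that table. The PU.1 core was present in 3 (Trim5, Trim12a and Trim12c) and in 3.2% of all windows, and both together in these 3 members and in 0.1% of all windows. A second Trim30a promoter of the table, at chr7:104446076-104446375, also held the interferon core and is not printed. Trim30b and Trim30c had neither word in these 300 bases. A match of letters is a description and was not tested as a binding site.

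The levels of the members were ordered by a length-corrected measure. In adult microglia the order of the deposited TPM values, which allow for gene length, was Trim30a at 65.8 ± 2.1 (SD, n = 2), Trim12a at 57.7 ± 0.806, Trim30d at 51.6 ± 2.69, Trim12c at 25 ± 1.2, Trim34a at 23.6 ± 0.392, Trim5 at 14.7 ± 0.27 and Trim30b at 5.53 ± 0.0318. Only the neighbours Trim12c and Trim34a lay within their SDs of each other in that order. In repopulation Ki67+ microglia Trim30a stood at 110 TPM and Trim12c at 39.6, Trim34a at 10.5, Trim30b at 1.61, Trim30d at 1.11, Trim5 at 1.04 and Trim12a at 0.059. Trim30d and Trim5 did not differ there beyond their SDs. At PND8 in Ki67+ cells Trim30a (54.1 TPM), Trim12c (24.7) and Trim34a (3.9) again led, and Trim30b, Trim5, Trim12a and Trim30d lay between 0.208 and 0.335 TPM, within their SDs of one another. Trim30a and Trim12c were thus well detected in every group, Trim34a was intermediate outside the adult group, and Trim12a, Trim30d, Trim5 and Trim30b were low there.

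**Figure D1:**
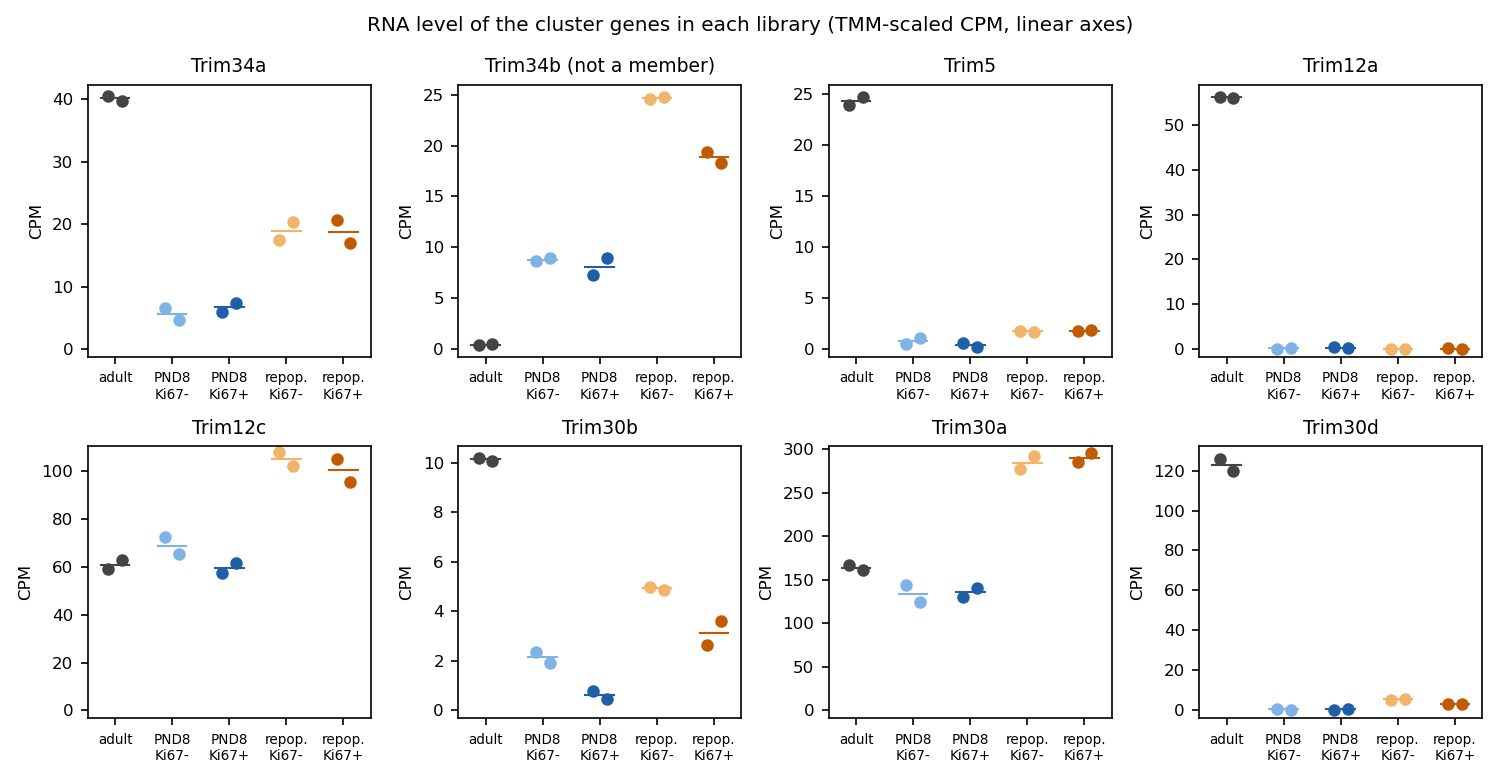
RNA level of each cluster gene (vertical axes, CPM scaled with TMM factors, linear) in the 5 groups (horizontal axes), with 1 point per library and a line at the mean of 2. Trim12a, Trim5 and Trim30d are near 0 in the 8 PND8 and repopulation libraries and at 23.9 CPM or more in both adult libraries, whereas Trim12c and Trim30a are highest in repopulation and Trim34b, a neighbour that is no member, is lowest in the adult libraries.

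Among the relatives of TRIM5, Trim12a was the extreme. It had 487 and 460 counts in the 2 adult libraries (56.3 and 56.2 CPM), 0 and 2 counts in PND8 Ki67- cells, 3 and 1 in PND8 Ki67+ cells, 0 and 0 in repopulation Ki67- cells, and 1 and 0 in repopulation Ki67+ cells. All 8 Ki67-rfp libraries were thus at or under the floor of 3 counts, and no fold change among them is reported. Against the adult libraries, with the floor in place of the low value, Trim12a was at least 166-fold lower in PND8 Ki67+, 174-fold in PND8 Ki67-, 145-fold in repopulation Ki67+ and 146-fold in repopulation Ki67- cells.

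Trim5 itself was at 23.9 and 24.7 CPM in the adult libraries. It stood at 0.495 and 1.1 CPM in PND8 Ki67- cells and at 0.551 and 0.231 in PND8 Ki67+ cells, from 2 to 12 counts per library. In repopulation it stood at 1.77 and 1.68 CPM in Ki67- cells and at 1.73 and 1.87 in Ki67+ cells. All 4 repopulation libraries were above all 4 PND8 libraries, and all 8 were far below the adult ones. The log2 differences from adult were -5.89 (PND8 Ki67+), -4.84 (PND8 Ki67-), -3.75 (repopulation Ki67+) and -3.8 (repopulation Ki67-).

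Trim12c, whose promoter differs from that of Trim12a at few bases, was present at similar or higher levels in every group. Its adult libraries were at 59.1 and 62.8 CPM, its PND8 libraries at 72.3 and 65.3 (Ki67-) and 57.6 and 61.6 (Ki67+), and its repopulation libraries at 108 and 102 (Ki67-) and 105 and 95.6 (Ki67+). The adult and PND8 values overlapped, and the 4 repopulation libraries were above all others. The log2 differences from adult were -0.03, 0.17, 0.72 and 0.78 for PND8 Ki67+, PND8 Ki67-, repopulation Ki67+ and repopulation Ki67-.

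Among the Trim30 genes, Trim30a was the most abundant and Trim30d the most variable. Trim30a, the inhibitor of Toll-like receptor signalling, was at 167 and 161 CPM in adult, 144 and 124 in PND8 Ki67-, 130 and 141 in PND8 Ki67+, 277 and 292 in repopulation Ki67-, and 285 and 295 in repopulation Ki67+ cells. Trim30d was at 126 and 120 CPM in adult, 0.619 and 0.367 in PND8 Ki67-, 0.33 and 0.809 in PND8 Ki67+, 5.2 and 5.94 in repopulation Ki67-, and 3.12 and 3.02 in repopulation Ki67+ cells. The 2 genes, at 65.8 and 51.6 TPM in adult, thus separated in every other library, and their printed promoters share the interferon core at nearly the same place, 36 to 27 bases before the start in Trim30a and 41 to 32 in Trim30d. Trim30b, a further paralog, was at 10.2 and 10.1 CPM in adult, 2.35 and 1.93 in PND8 Ki67-, 0.771 and 0.462 in PND8 Ki67+, 5 and 4.88 in repopulation Ki67-, and 2.66 and 3.6 in repopulation Ki67+ cells. Its values did not overlap between any 2 groups.

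Trim34a, which in humans has a counterpart that acts with TRIM5 on retroviral capsids, was lower outside the adult group by a smaller factor. It was at 40.6 and 39.8 CPM in adult, 6.56 and 4.68 in PND8 Ki67-, 5.95 and 7.4 in PND8 Ki67+, 17.5 and 20.4 in repopulation Ki67-, and 20.6 and 17 in repopulation Ki67+ cells. The groups fell into 3 levels that did not overlap, with adult highest, repopulation next and PND8 lowest.

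Against adult, 6 of the 7 measured members were lower past the threshold in PND8 Ki67+ and 6 in PND8 Ki67- cells, and 5 in repopulation Ki67+ and 5 in repopulation Ki67- cells. Of all genes, 49.5%, 46.8%, 44.9% and 39.2% were called in these comparisons and 24.3%, 21.4%, 21% and 17.6% were lower. Nothing is read from these counts, since these contrasts chose the members.

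To place these differences among all genes, the mean of the 4 Ki67-rfp groups was set against adult. Genes at least 4-fold lower with all 8 libraries below both adult libraries numbered 117 of 12230 (0.957%), and 4 of the 7 measured members were among them, which restates how they were chosen. Trim12a had the lowest log2 difference of all genes tested (-9.53, SE 0.278, a fitted value with counts near 0 on the low side and no bound). Trim30d was the 11th lowest (-6.37, SE 0.129) and Trim5 the 17th (-4.57, SE 0.226). Trim30b lay just inside the 4-fold limit (-2.25) and Trim34a just outside (-1.91), while Trim30a (0.26) and Trim12c (0.41) lay on the other side of 0. On chromosome 7 as a whole 16 of 985 tested genes (1.62%) met the rule, less than on chromosome 9 (1.94%). In steps of 10 Mb, the stretch from 100 Mb of chromosome 7 held 5 of 80, namely Trim30d, Trim30b, Trim5, Trim12a and Gm1966. All but Gm1966 are members, which the count of the whole chromosome also holds. Both counts thus partly restate how the members were chosen. Mki67, the tagged gene of the Ki67-rfp mice, lies on the same chromosome, 31.2 Mb beyond Trim30d. The part of this position in the differences from adult was not tested.

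Markers of other cells moved with the adult libraries too. The 7 monocyte or neutrophil markers, all above the floor in adult, summed to 68.7 to 227 CPM there and to 3.49 to 9.26 CPM in the other 8 libraries, where 2 to 6 of the 7 were above the floor. The 2 adult libraries differed widely in these genes, for example 83.4 and 20.2 CPM for the neutrophil granule gene Ngp. Trim12a was at 56.3 and 56.2 CPM in the same libraries. The part of these cells in the adult values was not tested. Lymphocyte markers summed to at most 1.21 CPM in any library.

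The comparisons among Ki67-rfp groups use no adult library and were tested. With edgeR's quasi-likelihood test and Benjamini-Hochberg adjustment over all 12230 genes, 6 of 7 measured members rose from PND8 to repopulation in Ki67+ cells, where 30.9% of all genes were called at an adjusted p under 0.05 and 16.7% were higher. In Ki67- cells 5 of 7 rose, where 36.6% of all genes were called and 18% were higher. No member fell in either, where 14.2% and 18.6% of all genes were lower. The median was taken over the 6 members above the floor in at least 1 library of the groups compared, which left Trim12a out. This median log2 fold change was 1.82 in Ki67+ and 1.15 in Ki67- cells, against 0 and -0.04 over all genes tested.

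Of the members low at PND8, Trim30d and Trim30b rose in both kinds of cells. Trim30d rose by a log2 fold change of 2.42 (SE 0.38, edgeR adjusted p = 0.000325) in Ki67+ cells and 3.5 (SE 0.344, adjusted p = 4.5e-06) in Ki67- cells. Its repopulation level of 3.02 to 5.94 CPM still differed from adult by log2 values of -5.32 and -4.47 in Ki67+ and Ki67- cells. Trim5 rose by 2.15 (SE 0.549, edgeR adjusted p = 0.00948) in Ki67+ cells. In Ki67- cells its log2 fold change was 1.04 (SE 0.469) and did not pass (adjusted p = 0.1), although it passed without PND8 Ki67- replicate 2 (1.8, adjusted p = 0.0454). Without PND8 Ki67+ replicate 2 the Ki67+ call ended (1.66, adjusted p = 0.0851). Trim30b rose by 2.3 (SE 0.459, edgeR adjusted p = 0.00201) in Ki67+ and by 1.21 (SE 0.356, adjusted p = 0.017) in Ki67- cells. The latter call ended without PND8 Ki67- replicate 2 (1.09, adjusted p = 0.0693), without repopulation Ki67- replicate 1 (1.2, 0.0839) or without its replicate 2 (1.23, 0.0552), and with only the 2 groups in the fit (1.24, 0.05).

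Trim30a, Trim12c and Trim34a, with more counts, rose in both kinds of cells with smaller standard errors. Trim30a rose by 1.1 (SE 0.0895, edgeR adjusted p = 8.88e-07) in Ki67+ and 1.09 (SE 0.0894, adjusted p = 8.7e-07) in Ki67- cells, and Trim12c by 0.76 (SE 0.102, adjusted p = 9.23e-05) and 0.61 (SE 0.101, adjusted p = 0.000423). Both ended above their adult levels. Trim34a rose by 1.5 (SE 0.212, edgeR adjusted p = 0.000137) and 1.76 (SE 0.216, adjusted p = 3.56e-05), to less than its adult level. For Trim12a both groups were at the floor, so a change between them was not detectable at this depth.

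The PND8 and repopulation libraries also carry different numeric codes in their file headers, except that PND8 replicate 2 and repopulation replicate 1 share one. On log2 CPM with a prior count of 2, which draws low values together, the differences between these single libraries were for Ki67+ cells 1.45 for Trim34a, 2.08 for Trim5, 0.77 for Trim12c, 2.05 for Trim30b, 1.02 for Trim30a and 1.69 for Trim30d. For Ki67- cells they were 1.85, 0.59, 0.72, 1.28, 1.15 and 3.18 in the same order. All 12 had the sign of the fitted values. Border macrophage markers such as Mrc1 and Pf4 summed to 580 to 845 CPM at PND8 (5 of 5 above the floor) and to 25.9 to 42.4 in repopulation (3 of 5 in Ki67- and 2 of 5 in Ki67+ cells). Erythroid markers summed to 23.1 to 75.4 CPM at PND8 (5 of 5 above the floor) and to at most 1.37 in repopulation (1 of 5). Astrocyte markers, 4 of 4 above the floor in all 4 groups, summed to 79.6 to 426 CPM in PND8 Ki67- and 500 to 564 in repopulation Ki67- cells, and to 43.9 to 364 and 406 to 419 in Ki67+ cells. They differed widely between PND8 replicates. The part of these cells in the rises of the members was not tested.

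**Figure D2:**
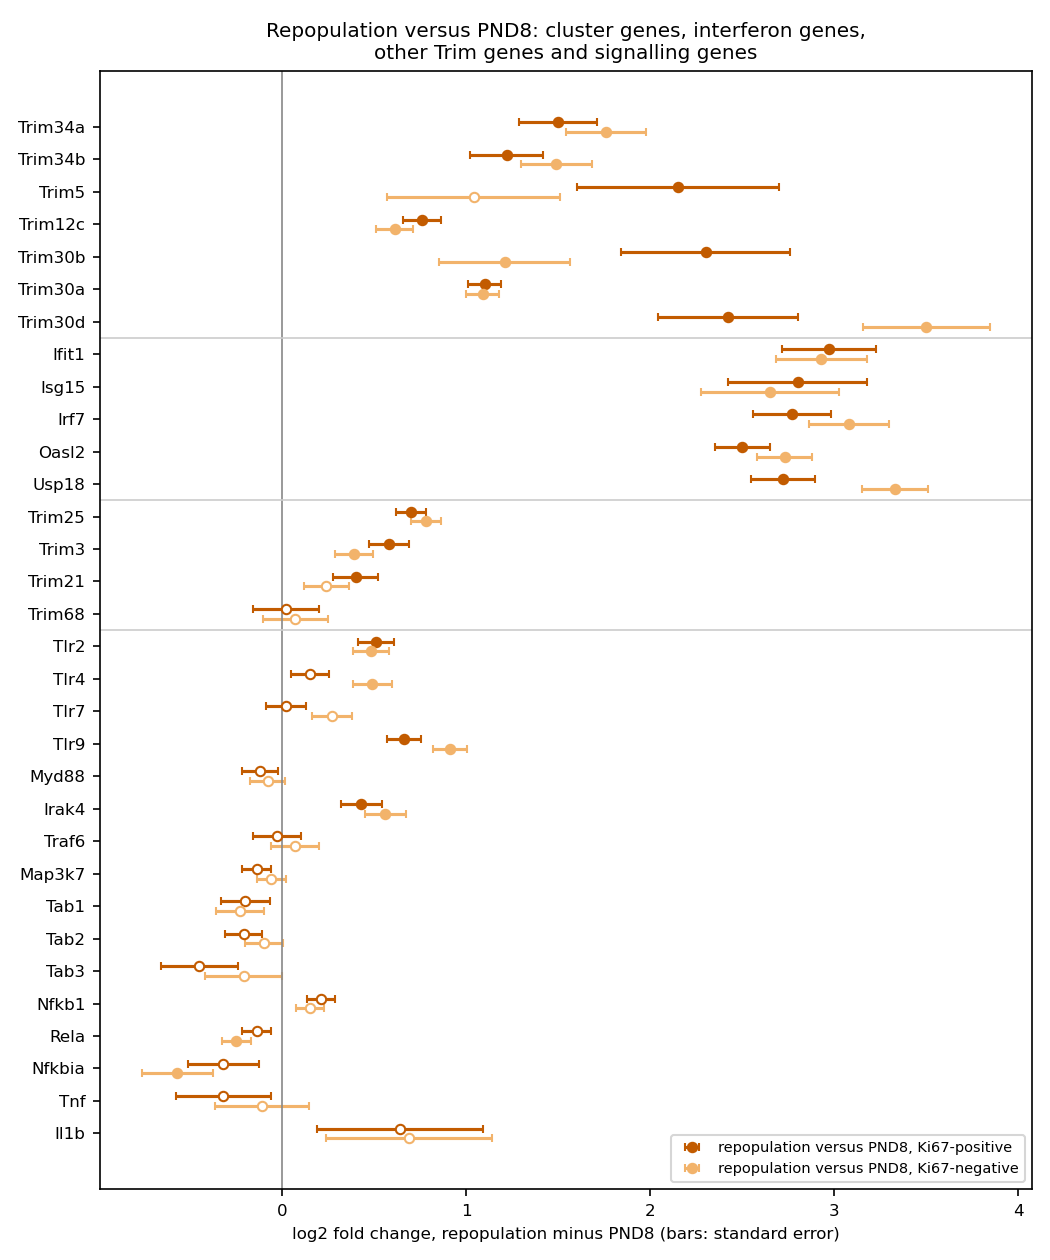
Log2 fold change from PND8 to repopulation (horizontal axis, with standard errors) for cluster genes, interferon genes, other Trim genes and signalling genes (vertical axis), dark for Ki67+ and light for Ki67- cells, filled where the edgeR adjusted p was under 0.05. The cluster genes drawn lie between 0.61 and 3.5 and the 5 interferon genes between 2.5 and 3.33. The 16 signalling genes at the bottom lie between -0.57 and 0.91. Trim34b, which is no member, is drawn among the cluster genes. Trim12a, at the floor in both stages, is not drawn.

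Between Ki67+ and Ki67- cells of the same stage few differences of the members passed the threshold. With 2 libraries per group and low counts for several members, a difference that did not pass is not shown to be absent. At PND8, Trim30b alone passed, at 0.771 and 0.462 CPM in Ki67+ against 2.35 and 1.93 CPM in Ki67- cells (log2 fold change -1.75, SE 0.473, edgeR adjusted p = 0.0459), where 5.9% of all genes were called and 3.15% were lower. Within each of the 2 header codes the difference, on log2 CPM with a prior count of 2, was -1.36 and -1.63. The call ended with DESeq2 (adjusted p = 0.0696), with limma on log2(TPM + 1) (0.0913, and 0.0733 with no filter), with only the 2 groups in the fit (0.231), and without any 1 of the 4 libraries (0.0637 to 0.344). In repopulation no member passed with edgeR, where 2.74% of all genes were called, 1.87% higher and 0.867% lower. Of the 7 members, 1 had an unadjusted p under 0.05, and DESeq2 called 0. That 1 was Trim30d, lower in Ki67+ cells by a log2 fold change of -0.84 (SE 0.247, edgeR adjusted p = 0.0978) with no overlap between the libraries. The rise from PND8 to repopulation was not shown to differ between Ki67+ and Ki67- cells for any member, with edgeR adjusted p of 0.96 to 0.999 for the difference of the 2 changes. Over all 12230 genes 0 passed that test, and the unadjusted p was 0.09 for Trim30b, 0.127 for Trim30d and 0.161 for Trim5.

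Near-identical members raise the question of how reads were divided among them, and how reads with more than 1 place were counted is not given in the sources used here. Sums over pairs, which do not depend on a division within the pair, were therefore added after the values had been seen. Trim12a made up 48.8% and 47.2% of the Trim12a and Trim12c sum in the adult libraries and between 0 and 0.57% in the other 8. The sum was 117 ± 2.83 CPM (SD, n = 2) in adult, 68.9 ± 4.81 in PND8 Ki67-, 59.8 ± 2.69 in PND8 Ki67+, 105 ± 4.24 in repopulation Ki67- and 101 ± 7.35 in repopulation Ki67+ cells. The repopulation sums thus came close to the adult sum with almost no Trim12a in them. No such sum was made for Trim30a and Trim30d, whose promoter windows match at 93.9%. In repopulation Trim30d stood at 3.07 (Ki67+) and 5.57 CPM (Ki67-), beside 290 and 284 CPM for Trim30a. The part of read division between these genes in the rise of Trim30d was not tested.

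Trim34a and its neighbour Trim34b, a paralog that is no member, differed between the adult and the other libraries in opposite directions. Trim34b was at 0.347 and 0.489 CPM in adult, 8.66 and 8.9 in PND8 Ki67-, 7.27 and 8.9 in PND8 Ki67+, 24.6 and 24.8 in repopulation Ki67-, and 19.4 and 18.3 in repopulation Ki67+ cells. Trim34b was thus higher in all 8 Ki67-rfp libraries than in both adult ones, with log2 differences from adult of 4.23 to 5.84, while Trim34a was lower in all 8. The share of Trim34a in the pair was 99.2% and 98.8% in the adult libraries and 34.5% to 51.4% in the others. The sum of the pair was 40.6 ± 0.424 CPM in adult, 14.4 ± 1.13 and 14.8 ± 2.19 at PND8, and 43.7 ± 2.26 and 37.6 ± 3.32 in repopulation (Ki67- and Ki67+). On the sum, repopulation and adult lay close together and PND8 lower. Trim34b rose from PND8 to repopulation by 1.22 (SE 0.199, edgeR adjusted p = 0.000428) in Ki67+ and 1.49 (SE 0.194, adjusted p = 5.82e-05) in Ki67- cells, close to the values of Trim34a.

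Peaks at the gene starts were read as present or absent within 1000 bp of the start in each list, and their heights are the authors' normalized tag counts, scaled to the same number of tags in each list over regions of unequal length, given side by side with no test. In all 12 H3K27ac lists, which mark active promoters and enhancers and are labelled wild type, 7 of the 8 members had a peak, the exception being Trim30b. Between 41.3% and 51.1% of all gene starts had one. At Trim12a the tag counts were 156.4 and 155.4 in adult, 166.3 and 149 in PND8 Ki67-, 138.7 and 180.8 in PND8 Ki67+, and 174.5 and 241.6 in repopulation Ki67+ cells. At Trim30d they were 82.6 and 109.3 in adult, 91.3 and 89.2 in PND8 Ki67-, 73.5 and 92.7 in PND8 Ki67+, and 78.9 and 100.3 in repopulation Ki67+ cells. At Trim5 they were 47.6 and 82.5 in adult, 94.9 and 93.8 in PND8 Ki67-, 71.1 and 119 in PND8 Ki67+, and 89.6 and 120.8 in repopulation Ki67+ cells. At none of these 3 starts was the adult pair above all PND8 and repopulation values, unlike the RNA of the Ki67-rfp mice. After cuprizone, a diet that damages myelin, Trim12a stood at 250.4 and 345.2 in Ki67- and 248.1 and 286.9 in Ki67+ cells, Trim30a at 256.8 and 377.5 and at 300.7 and 293.2, and Trim30d at 166.9 and 233.2 and at 130 and 176.7. At these starts and those of Trim34a and Trim12c, the 4 cuprizone values were above those of every other H3K27ac list, and at Trim5 and Trim30c they were not. Heights at other starts were not compared between lists, and RNA after cuprizone was not analysed here.

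The promoter mark H3K4me3 in adult microglia gave the same 7 members, where 60% and 60.7% of all starts had a peak. Its tag counts were highest at Trim12a (428.5 and 476.7) and Trim12c (400.5 and 350.6), followed by Trim34a (303.9 and 305.9), Trim5 (253.2 and 273), Trim30a (177.6 and 189.5), Trim30d (115.3 and 117.1) and Trim30c (32.7 and 14.2). This order differed from that of adult TPM, in which Trim30a led. For RNA polymerase II, the adult Rpb2 lists had peaks at Trim30a (44.2 and 6.84) and Trim30d (49.1 and 9.88) in both, and at Trim34a (11.9) in replicate 1. These were 3 and 2 members, where 36% and 30.6% of all starts had a peak. The single PND8 Ki67+ Rpb2 list, labelled wild type, had peaks at 7 members, where 48.4% of starts had one. Its file header named the control as a library prepared for H3K27ac, not for Rpb2. Its peaks stood at Trim30a (34.7), Trim30d (23.5), Trim34a (22.4), Trim12c (14.2), Trim30c (13), Trim12a (9.32) and Trim5 (7.46). That list held 31602 peaks against 14550 and 10544 in adult, so presence in it is not set against absence in the adult lists.

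The ATAC-seq lists, which mark open chromatin with 1 library each and no replicate check, separated Trim5, Trim12a and Trim30d from the other members. In wild-type adult microglia 7 members had a peak, at normalized tag counts of 361 for Trim12c, 314.5 for Trim30a, 278.6 for Trim30d, 206.7 for Trim34a, 43.4 for Trim30c, 40.4 for Trim5 and 16.5 for Trim12a. In PND8 Ki67+ cells 4 had one, namely Trim12c (229.1), Trim34a (117.9), Trim30a (104.4) and Trim30c (31.2). In repopulation Ki67+ cells the same 4 had one, Trim12c (198), Trim30a (174.7), Trim34a (170.1) and Trim30c (41.9). The starts of Trim5, Trim12a and Trim30d thus had a peak in the adult list and none in either list titled Ki67rfp. Of the 7 measured members these had the lowest mean TPM in the Ki67+ RNA groups of those stages. At PND8, though, the mean ± SD ranges of these genes overlapped that of Trim30b. The Trim5 and Trim12a windows share 241 bases without a mismatch, and that of Trim30d matches Trim30a at 93.9%. How ATAC-seq reads with more than 1 place were treated is not given in the sources used here. The part of read placement in these absences was not tested.

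Across the genome such a loss was uncommon. Of 11762 gene starts with an adult ATAC-seq peak, 245 (2.08%) had none in the PND8 list and 101 (0.859%) none in the repopulation list, against 3 of 7 members in each. The members were chosen by RNA that for several was far lower in PND8 and repopulation than in adult microglia. Their share is therefore a description and carries no test. Of 1344 starts with an adult peak at least as high as that of Trim30d, 1 lacked a peak in the PND8 list and 1 in the repopulation list (0.0744% each), which was Trim30d itself. At the height of the Trim5 peak or more, 28 of 9666 (0.29%) and 11 of 9666 (0.114%) were without one. At the height of the weak Trim12a peak or more it was 120 of 11213 (1.07%) and 43 (0.383%), and without the 25% of each list with the lowest scores 2 members in place of 3 showed the loss in each list. The ATAC-seq lists held 71642 (adult), 75296 (PND8) and 95411 peaks (repopulation), so the adult list was the shortest. The nearest peak to the Trim30d start was 42153 bp away in the PND8 list and 1921 bp away in the repopulation list, where a peak of 21 stood at chr7:104505814-104505928 inside the gene. With a limit of 2000 bp that peak counted, and 2 members then showed the loss in repopulation.

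**Figure D3:**
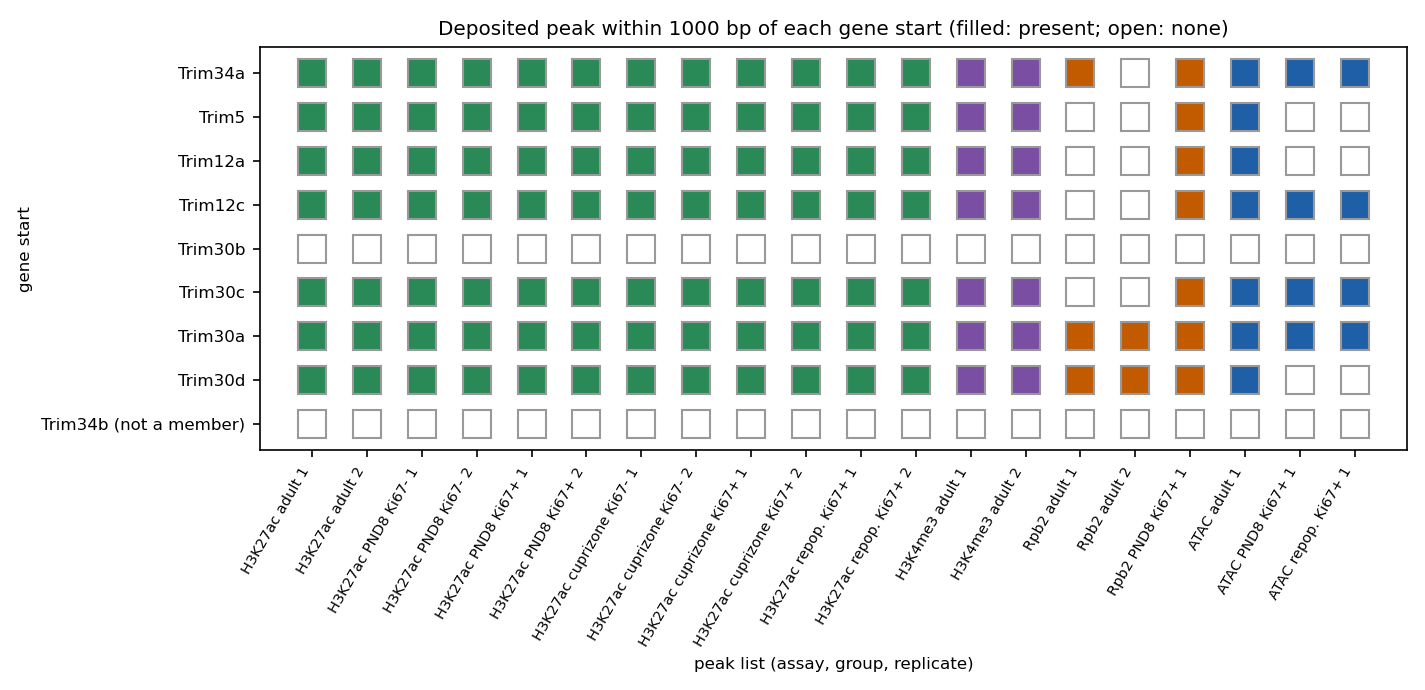
Presence (filled) or absence (open) of a deposited peak within 1000 bp of each gene start (vertical axis) in each of the 20 lists (horizontal axis), coloured by assay. Trim5, Trim12a and Trim30d are filled in all 12 H3K27ac lists and in the adult ATAC-seq list and open in the 2 other ATAC-seq lists, while Trim30b and Trim34b are open throughout.

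Over the 800000 bp of the window the adult ATAC-seq list held 30 peaks (3390 bp covered), the PND8 list 18 (2142 bp) and the repopulation list 23 (2645 bp). After peaks within 236 bp were joined, 30 sites remained, of which 14 were in all 3 lists and 10 in the adult list alone. The adult-only sites included the Trim5, Trim12a and Trim30d starts, a site 5532 bp inside Trim30d (88.4), a site 12036 bp upstream of the Trim5 start (64.4) and one 3395 bp upstream of Trim34a (38.9). A site 11490 bp upstream of the Trim30b start was in all 3 lists (274.1, 104.4 and 161.9 in adult, PND8 and repopulation). Each H3K27ac list also had a peak overlapping that site (86.6 to 234.7), as did both adult H3K4me3 lists (24.2 and 16.4). Rpb2 peaks overlapped it in adult replicate 1 (17.3) and at PND8 (20.1). Trim30b itself had no peak within 1000 bp of its annotated start in any of the 20 lists, although its RNA was detected in every library. Whether the upstream site serves as a start of Trim30b was not tested. The window held 9 to 12 H3K27ac peaks per list, 11 H3K4me3 peaks in both lists, 5 and 3 Rpb2 peaks in adult and 16 at PND8.

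**Figure D4:**
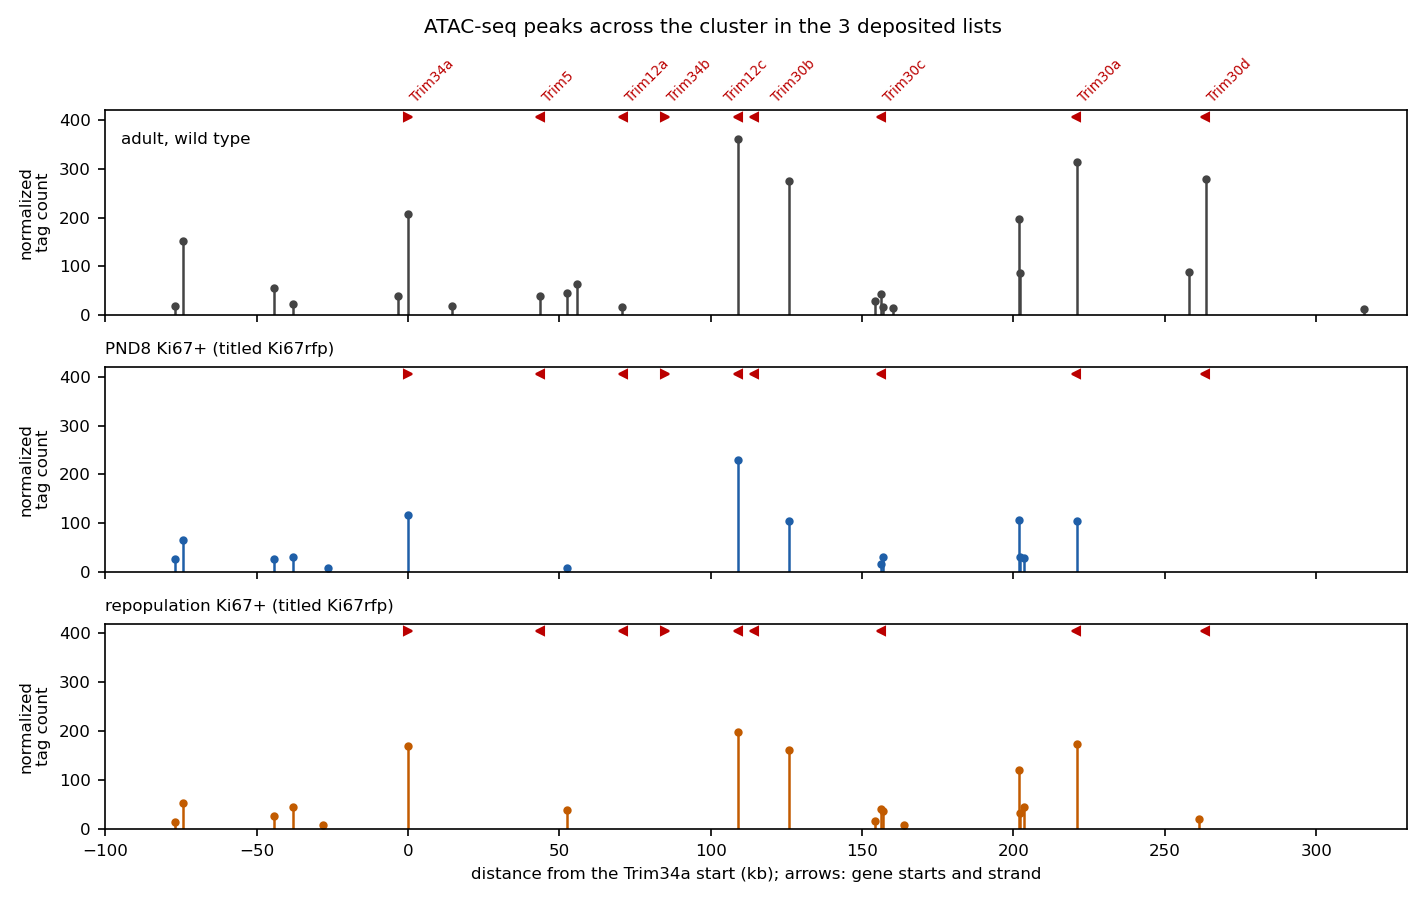
ATAC-seq peaks as vertical lines at their distance from the Trim34a start (horizontal axis, kb) with the authors' normalized tag count (vertical axis) in 3 lists of 1 library each, and arrows for gene starts and strand. The peaks at the Trim5, Trim12a and Trim30d starts (40.4, 16.5 and 278.6) stand in the adult panel alone, and those at Trim34a, Trim12c and Trim30a stand in all 3 panels.

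The interferon response genes, a list of 25 that holds no member, rose from PND8 to repopulation as a group. All 25 of 25 passed in both Ki67+ and Ki67- cells. Over all genes, 30.9% and 36.6% were called there and 16.7% and 18% were higher. The median log2 fold changes of the list were 2.3 and 2.61 against 0 and -0.04 over all genes. The list was chosen with earlier results of these data known. Isg15, a ubiquitin-like protein, rose by 2.8 in Ki67+ cells (SE 0.377, edgeR adjusted p = 9.22e-05) and by 2.65 in Ki67- cells (SE 0.375, adjusted p = 0.000122). Ifit1, which binds viral RNA, rose by 2.97 and 2.93, Irf7, a transcription factor of the interferon response, by 2.77 and 3.08, and Usp18, which limits receptor signalling, by 2.72 and 3.33. Oasl2, of the oligoadenylate synthetase-like family, rose by 2.5 and 2.73. The edgeR adjusted p of these last 4 lay between 1.67e-08 and 1.41e-06. Beside these 5 genes, the changes of Trim30a and Trim12c (0.61 to 1.1) were smaller and that of Trim30d in Ki67- cells (3.5) was larger, and differences between genes were not tested. At PND8 1 gene of the 25, Ifi27l2a, was higher in Ki67+ than in Ki67- cells (1.8, SE 0.333, edgeR adjusted p = 0.0052). Over all genes, 5.9% were called there and 2.75% were higher. In repopulation edgeR called 0 of 25, where 2.74% of all genes were called. There 3 of the list had an unadjusted p under 0.05 and 1 was called by DESeq2.

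Trim30a is known to act on Toll-like receptor signalling to NF-kB. Of 16 genes of the Toll-like receptor and NF-kB list, 3 rose in Ki67+ cells from PND8 to repopulation and 0 fell, where 16.7% and 14.2% of all genes did. In Ki67- cells 4 rose and 2 fell, where 18% and 18.6% of all genes did. The receptors Tlr2 and Tlr9 and the kinase Irak4 rose in both, by 0.51, 0.66 and 0.43 in Ki67+ and by 0.48, 0.91 and 0.56 in Ki67- cells. Tlr4 rose by 0.49 in Ki67- cells, where the NF-kB subunit Rela (-0.25) and its inhibitor Nfkbia (-0.57) fell. The Trim30a targets Tab2 (-0.21 in Ki67+ and -0.1 in Ki67- cells, edgeR adjusted p = 0.135 and 0.483) and Tab3 (-0.45 and -0.21, adjusted p = 0.121 and 0.466) did not pass, nor did Tlr7 (0.02 and 0.27) or Traf6 (-0.03 and 0.07). These are RNA levels, while Trim30a removes the Tab2 and Tab3 proteins, which were not measured here. Between Ki67+ and Ki67- cells edgeR called 0 of 16 at PND8 and 0 in repopulation, where 5.9% and 2.74% of all genes were called. In each, 1 of the 16 had an unadjusted p under 0.05 and 0 were called by DESeq2.

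Other genes named Trim gave a mixed picture. Of 60 such genes 38 were tested, Trim34b included, and 10 rose and 2 fell from PND8 to repopulation in Ki67+ cells, while 12 rose and 5 fell in Ki67- cells, with medians of 0.08 and 0.18. Of all genes, 16.7% and 14.2% rose and fell in Ki67+ cells and 18% and 18.6% in Ki67- cells. The 12 calls in Ki67+ cells became 7 without PND8 Ki67+ replicate 2 or repopulation Ki67+ replicate 1, and the 17 in Ki67- cells became 9 without repopulation Ki67- replicate 1. For Trim25, which acts in RNA sensing, the rise was 0.7 in Ki67+ cells (SE 0.0823, edgeR adjusted p = 2.6e-05) and 0.78 in Ki67- cells (SE 0.0825, adjusted p = 9.11e-06). Of the Trim genes elsewhere on chromosome 7, Trim3 was higher in repopulation by 0.58 in Ki67+ cells (edgeR adjusted p = 0.00117) and by 0.39 in Ki67- cells (adjusted p = 0.0101). Trim21, an antibody receptor of the cytosol, rose in Ki67+ cells (0.4, adjusted p = 0.0237) and did not pass in Ki67- cells (0.24, adjusted p = 0.139), and Trim68 did not pass (0.02 and 0.07). Trim59 was the only one called between Ki67+ and Ki67- cells, where 5.9% (PND8) and 2.74% (repopulation) of all genes were called. It was higher in Ki67+ cells by 1.55 at PND8 and 1.31 in repopulation, and was named after its values were seen.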

How the data were processed

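RNA was sequenced from sorted microglia in 10 libraries, and 20 peak lists came from H3K27ac, H3K4me3, Rpb2 and ATAC-seq libraries. The deposited RNA tables hold raw read counts per gene and, separately, TPM values made by the authors, both per the file headers. Reads were aligned with STAR 2.7.0f (RNA) and Bowtie2 2.3.4.1, and HOMER 4.11 and DESeq2 were used, per the submitters' processing notes; how reads with more than 1 place were counted is not given in the sources used here. The peak lists were called by the authors for each library, per the file headers, and give each peak a signal (the normalized tag count, scaled to a fixed number of tags) and a score, the findPeaks score of the deposited lists. ATAC-seq and Rpb2 PND8 lists have 1 library each. Builds are mm10 and GRCm38.

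The deposited counts were scaled with TMM factors, filtered by group and fitted in 1 model of all 10 libraries with edgeR 4.0.16 (R 4.3.3), by the quasi-likelihood test with Benjamini-Hochberg adjustment over all genes tested and a threshold of 0.05. The fit was tested on simulated data. Library totals ran from 6865903 to 10287876 counts, and floors cover counting error only. Standard errors come from the quasi-likelihood fit, which estimates the spread between replicates, and SDs are over 2 libraries. A floor of 3 counts stands in for lower values in folds. Lists were described by counts and medians, with no test of the list. DESeq2 1.42.0, limma 3.58.1 on log2(TPM + 1) and log2(TPM + 0.1), other scalings and filters, a replicate block, the header code as a batch term and the omission of each library were tried. Promoter windows were compared by local alignment with Biopython 1.88. The members and lists were chosen with earlier results of these data known. Genes named are the members, Mki67, other genes of the window with 10 or more counts in a library, chosen genes of each list, Trim genes of the same chromosome and Trim25, the 3 genes most like each member, and the 5 genes outside the cluster with the lowest mean difference from adult; 1 gene of the interferon list is not reported here.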

Additional observations from a re-analysis of the deposited data

How the results depend on the processing

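Of 884 values recomputed under another setting, 786 stayed the same, 84 moved, 13 were no longer past the threshold, 1 newly passed and 0 reversed. The same meant keeping direction and side of the threshold or staying within the replicate spread. For the 50 peak values it meant staying within a set ratio of the main value. By that rule the fall from 3 to 2 members with the ATAC-seq loss counted as the same. The single member called between Ki67+ and Ki67- cells at PND8 became 0 with DESeq2, with limma on log2(TPM + 1) with or without the filter, with only the 2 groups and without any 1 library (0 to 0). The 6 and 5 members called from PND8 to repopulation became 5 to 6 and 4 to 5 without 1 library. Counts for the lists moved mainly in the PND8 comparison of Ki67+ with Ki67- cells. There the interferon list (1) gave 2 with no filter, 2 with a term for the header code and 0 to 2 without 1 library, the signalling list (0) gave 1 with the header code and 0 to 2 without 1 library, and the other Trim genes (1) gave 3 with no filter, 5 with the header code and 1 to 2 without 1 library. In repopulation the interferon list (0) gave 1 with DESeq2, 1 with no filter and 3 with the header code. The other Trim genes called from PND8 to repopulation (12 and 17) became 7 to 12 in Ki67+ and 9 to 15 in Ki67- cells without 1 library. Without the 25% of each list with the lowest score, members with an adult Rpb2 peak, summed over 2 lists, went from 5 to 3 and Rpb2 peaks in the window from 8 to 4. The cause of these shifts was not tested. Trim5 from PND8 to repopulation in Ki67- cells passed without PND8 Ki67- replicate 2 (1.8, edgeR adjusted p = 0.0454). Member differences from adult were smaller with limma on log2(TPM + 1), where the pseudocount compresses low values.

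Same-numbered libraries are not stated to be paired. Their deviations from the group means correlated at 0.338 and 0.263 between Ki67+ and Ki67- cells at PND8 and in repopulation, and at 0.0471 and 0.0635 between stages. With the replicate number as a block the members called were 1, 0, 6 and 5, as without it. The header code term for the lists, the sums over paralog pairs, the test of the difference between Ki67+ and Ki67- changes and the alternatives of the mean difference from adult were chosen after seeing the data. The planned comparison of shared transcript words among members was not run because no transcript sequences were used here. Depth limits Trim12a in all 8 Ki67-rfp libraries and leaves Trim5 and Trim30d at PND8 with 2 to 12 counts.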

Other observations

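Genes whose pattern over the 10 RNA libraries was most like that of a member came from other chromosomes. Likeness was Pearson's r of log2 CPM over all other genes tested, with the 10 libraries in common, and is given with no test. Trim34a was closest to Gbp5 (0.993), an interferon-induced guanylate-binding protein with an adult level of 38.2 CPM, 20.2 and 21.1 CPM in the PND8 groups and 29.6 CPM in both repopulation groups, then to Mob3a (0.99) and Tgoln1 (0.985). Trim30b was closest to Nod1 (0.988), a sensor of bacterial cell wall fragments at 68.5 CPM in adult and 28.9 in PND8 Ki67+ cells, then to Znrf1 (0.986) and B3galt5 (0.981). Trim30d was closest to Per2 and Invs (0.989 each) and Hlf (0.984). Per2, a component of the circadian clock, had 51.9 CPM in adult cells, 9.09 (Ki67-) and 10.1 (Ki67+) in PND8 cells, and 17.4 (Ki67-) and 12.8 (Ki67+) in repopulation cells. Trim5 was closest to Ccdc171 (0.976), March9 (0.975) and Dixdc1 (0.975), and Trim12a to Prag1 (0.99), Cdc42ep1 (0.977) and Zfp748 (0.977). Prag1 was at 218 CPM in adult and between 124 and 129 in the other groups, so a high r went with a far smaller change than that of Trim12a. Trim12c was closest to Gm5431 (0.987), Ccdc80 (0.985) and Pear1 (0.984), and Trim30a to Gk (0.992), Haao (0.991) and Htra3 (0.99). Gm5431 had 14.1 CPM in adult cells, 18.7 (Ki67-) and 15.6 (Ki67+) in PND8 cells, and 46.5 (Ki67-) and 37.6 (Ki67+) in repopulation cells.

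The 5 genes outside the cluster with the lowest mean difference from adult were Chil3 (-8), S100a9 (-7.82), Ngp (-7.66), Ltf (-7.41) and Cdc42ep1 (-7.08), fitted log2 values with counts near 0 on the low side. The first 4 of these are genes of neutrophils and other myeloid cells. Their adult libraries differed from each other, at 21.4 and 5.01 CPM for Chil3, 32.8 and 8.8 for S100a9, 83.4 and 20.2 for Ngp and 57.7 and 11.1 for Ltf.

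The window held 36 other genes of the count table. Of these 23 were olfactory receptor genes, none of which had more than 1 count in any library. The 5 with 10 or more counts in a library were Trim34b and the beta-globin entries Hbb-bs, Hbb-b1, Hbb-bt and Hbb-b2. Hbb-bs and Hbb-b1 held identical values, as did Hbb-bt and Hbb-b2. Hbb-bs was at 16.7 and 10.6 CPM in PND8 Ki67- and Ki67+ cells and at 0 and 0.072 CPM in repopulation, and Trim30d, in the same window, went the other way.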
